A study of Mus musculus with 34 samples.

Results

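The comparison described here is RNA at day 2 of adipocyte differentiation against RNA at 4 hours in cells with hairpins against KDM5 histone demethylases. Its members are 4 of the series' 34 samples, the polyA RNA libraries of shKdm5ABC cells at 4 hours (n = 2) and at day 2 (n = 2), chosen by their labels. All are mouse 3T3-L1 cells, an established preadipocyte line, exposed for 24 hours to lentivirus carrying hairpins against Kdm5a, Kdm5b and Kdm5c with polybrene at 6 ug/mL, 4 days before induction. Induction at day 0, when the cells were 2 days past confluence, used fetal bovine serum with insulin, 3-isobutyl-1-methylxanthine (which raises cAMP) and the glucocorticoid dexamethasone, and the labels add a change to medium with serum and insulin on day 2, without saying whether the harvest came before it. Control cells were treated in the same way with a control hairpin, shLuc, and each time again has 2 libraries. Beside these 8 libraries, the 4 day 0 libraries entered the shared estimate of spread. The labels call the replicates experiments 1 and 2 and do not say how the cultures were kept apart, so every p-value measures the spread between these libraries, which may be technical.

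KDM5A, KDM5B and KDM5C remove methyl groups from lysine 4 of histone H3, a mark that peaks at the start sites of active genes. Confluent 3T3-L1 cells respond to the induction cocktail first with immediate-early and hormone-response genes, then re-enter the cell cycle for a few divisions (mitotic clonal expansion), and then switch on the lipid-storing adipocyte program through C/EBP factors and PPARg. Adipocytes are known for storing triglyceride in a lipid droplet and for secreting hormones such as adiponectin and leptin. In bulk RNA a change in the share of cells that make a transcript and a change in the amount per cell cannot be told apart.

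Each deposited RNA value is a normalized tag number per kb of transcript on a log2 scale, called the log2 level below, so levels can be set side by side between genes. A difference of levels, day 2 minus 4 hours, is a log2 change. Of 17515 RefSeq transcripts in the table, 13534 had a log2 level of at least 1 in at least 2 libraries and were tested with limma, and a transcript was called at a Benjamini-Hochberg adjusted p under 0.05. Counts were not used here, so the depth of the libraries is unknown. The 2140 transcripts with a mean level below -2 had a median SD over the 12 libraries of 0.0933, against 0.582 for those at levels of 3 to 5. Values of low transcripts thus lie close together, and whether the log2 scale compresses changes of low transcripts was not tested. The change between times was larger in the replicate 2 pair for 65.4% of the transcripts called higher and 65.9% of those called lower.

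From 4 hours to day 2 in shKdm5ABC cells, 5582 of 13534 transcripts were called (41.2%), 2756 higher at day 2 (20.4%) and 2826 lower (20.9%). The median log2 change over all tested transcripts was -0.014. Among called transcripts 1197 were higher and 1407 lower by more than 1 on the log2 scale, and 27 and 19 by more than 4. The libraries of both times did not overlap for 9311 transcripts (68.8%). With the replicate number as a block 7756 transcripts were called (57.3%), 3784 higher (28.0%) and 3972 lower (29.3%). The shares 20.4% and 20.9% are the background for the counts of list members that rose and fell in shKdm5ABC cells below, and 28.0% and 29.3% that for such counts with the block.

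The 3 targets of the hairpins were below the shLuc level at both times and did not pass the test between the times. Kdm5a stood at 7.17 and 6.94 at 4 hours and at 6.97 and 6.77 at day 2 in shKdm5ABC cells, against 7.81 and 7.87 and then 7.73 and 7.82 in shLuc cells. Kdm5b stood at 6.98 and 7.0 at 4 hours and at 6.97 and 6.89 at day 2, against 7.66 and 7.78 and then 7.57 and 7.58. Kdm5c stood at 6.97 and 6.52 at 4 hours and at 7.17 and 6.91 at day 2, against 7.98 and 8.18 and then 8.29 and 8.49. For each target all 4 knockdown libraries lay below all 4 shLuc libraries of these times. The log2 changes from 4 hours to day 2 were -0.19 (SE 0.13, adjusted p = 0.289) for Kdm5a, -0.06 (SE 0.10, adjusted p = 0.661) for Kdm5b and 0.29 (SE 0.18, adjusted p = 0.222) for Kdm5c. Of 25 writers and erasers of H3K4 methylation that were tested, 6 rose and 2 fell. Hcfc1, a subunit shared by SET1 and MLL complexes, rose by 0.78 (SE 0.12, adjusted p = 0.000563), and Ash2l, a core subunit of the same complexes, fell by 0.41 (SE 0.10, adjusted p = 0.00945). With the block 10 of the 25 were called higher. Neither fall remained without day 2 replicate 1, and 1 remained when 4 hour replicate 1 or day 2 replicate 2 was left out.

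Genes of triglyceride storage rose together. Of 19 tested genes of triglyceride synthesis, lipolysis and the lipid droplet, 16 rose and 0 fell, and their median log2 change was 1.96. Cidec, a protein of lipid droplet fusion, stood at 3.78 and 4.23 at 4 hours and at 10.59 and 11.81 at day 2, a 147-fold rise and the largest among called transcripts. Its log2 change was 7.20 (SE 0.83, adjusted p = 9.65e-05). Plin1, the coat protein of adipocyte lipid droplets, stood at 2.45 and 2.26 at 4 hours and at 8.07 and 8.75 at day 2 and rose by 6.06 (SE 0.64, adjusted p = 5.83e-05). Lipe, which encodes hormone-sensitive lipase, stood at 5.81 and 5.96 at 4 hours and at 10.63 and 11.43 at day 2 and rose by 5.15 (SE 0.35, adjusted p = 4.79e-06). Day 2 libraries lay far above 4 hour libraries for all of these, and replicate 2 was above replicate 1 at day 2. Gpd1, the enzyme that makes glycerol 3-phosphate, stood at 3.75 and 3.0 at 4 hours and at 7.69 and 9.30 at day 2 and rose by 5.12 (SE 0.54, adjusted p = 5.67e-05). G0s2, an inhibitor of adipose triglyceride lipase, stood at 3.09 and 2.97 at 4 hours and at 8.07 and 8.52 at day 2 and rose by 5.27 (SE 0.64, adjusted p = 0.000134). Abhd5, Bscl2 and Lpin2 were the members that did not pass the test, and 1 of the list fell with the block or without day 2 replicate 2.

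Genes of fatty acid uptake and of adipocyte secretion followed the same direction, with 15 of 21 called higher, 1 called lower and a median log2 change of 1.87. Retn, which encodes the hormone resistin, stood at 3.02 and 3.11 at 4 hours and at 9.35 and 9.72 at day 2 and rose by 6.47 (SE 0.53, adjusted p = 1.44e-05). Cfd, which encodes adipsin, stood at 3.22 and 3.56 at 4 hours and at 8.96 and 10.48 at day 2 and rose by 6.33 (SE 0.66, adjusted p = 5.36e-05). Adipoq, which encodes adiponectin, stood at 3.59 and 4.64 at 4 hours and at 9.44 and 10.52 at day 2 and rose by 5.86 (SE 0.76, adjusted p = 0.000193). In each case both day 2 libraries lay above both 4 hour libraries, and replicate 2 was the higher at day 2. Acsl1, the main long-chain acyl-CoA synthetase of fat cells, began higher, at 7.02 and 7.50 at 4 hours and at 11.80 and 12.86 at day 2, and rose by 5.07 (SE 0.71, adjusted p = 0.000317). Angptl4, a secreted inhibitor of lipoprotein lipase, stood at 7.58 and 8.31 at 4 hours and at 10.18 and 10.18 at day 2 and rose by 2.24 (SE 0.22, adjusted p = 4.09e-05). The single member that fell was Sncg, which encodes gamma-synuclein, at 4.92 and 5.27 at 4 hours and at 3.98 and 3.88 at day 2, by 1.17 (SE 0.28, adjusted p = 0.00798). Without 4 hour replicate 2 its adjusted p was 0.059, and with the block 2 members fell. Fam83a was the remaining transcript among the 10 highest changes, at 2.60 and 2.78 at 4 hours and at 8.11 and 8.68 at day 2, and rose by 5.70 (SE 0.56, adjusted p = 3.66e-05).

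**Figure D1:**
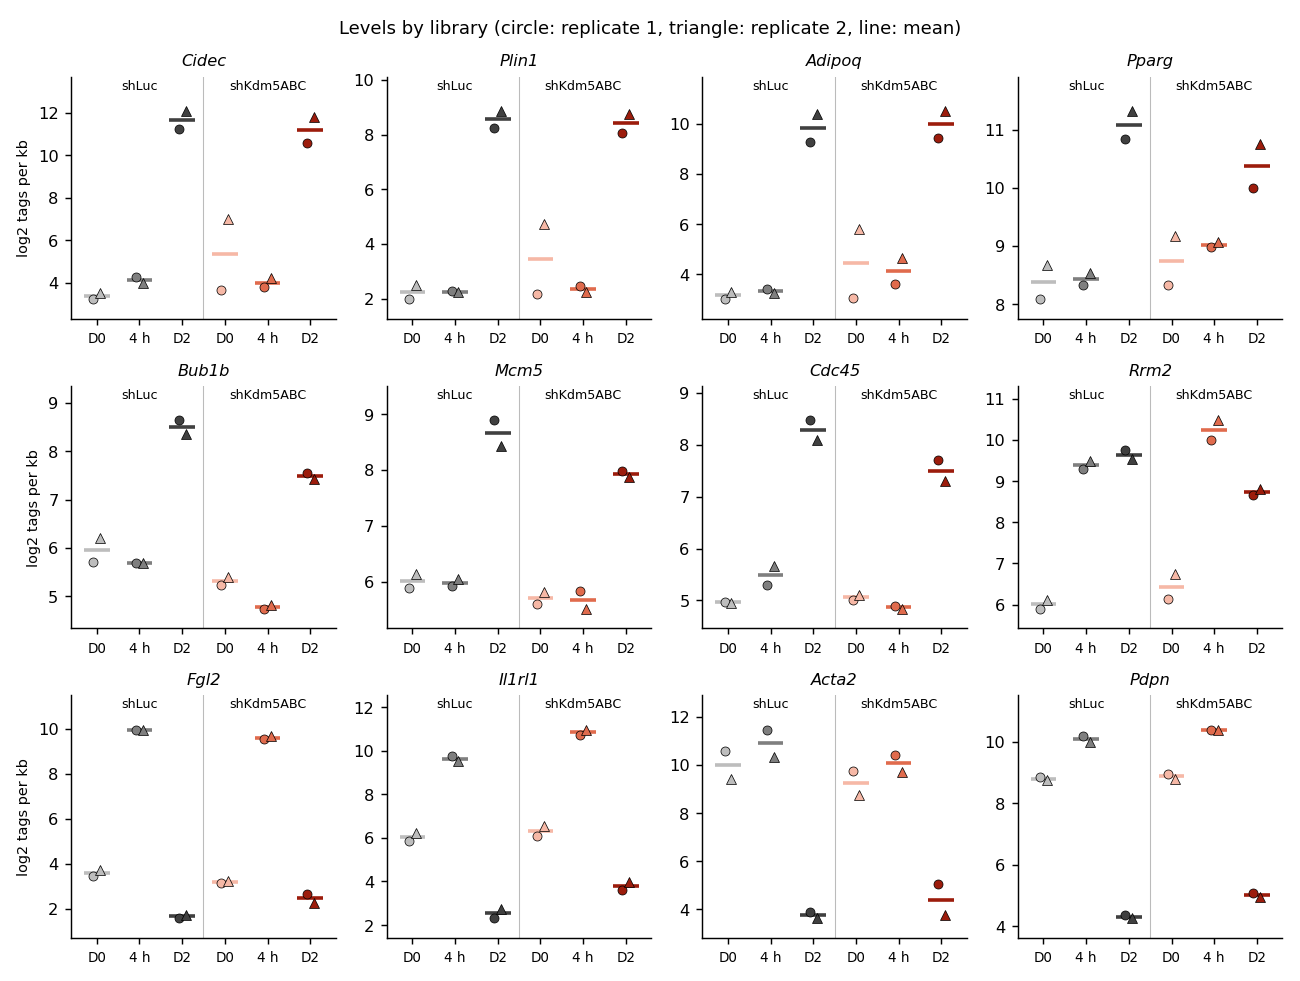
Log2 level (log2 tags per kb, y axis) of 12 genes in each of the 12 RNA libraries, by hairpin and time (x axis: D0, day 0; 4 h; D2, day 2). Circles are replicate 1, triangles replicate 2 and lines the mean of both. In shKdm5ABC cells Cidec stood at 3.78 and 4.23 at 4 hours and at 10.59 and 11.81 at day 2, Bub1b at 4.74 and 4.82 at 4 hours and at 7.56 and 7.42 at day 2 and Fgl2 at 9.54 and 9.68 at 4 hours and at 2.67 and 2.27 at day 2, while Rrm2 stood at 9.99 and 10.48 at 4 hours and at 8.66 and 8.82 at day 2.

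Transcription factors of adipogenesis went both ways. Of 24 tested, 16 rose and 6 fell, with a median log2 change of 1.28. Cebpb, the early C/EBP factor, stood at 10.71 and 10.66 at 4 hours and at 9.80 and 9.61 at day 2 and fell by 0.98 (SE 0.16, adjusted p = 0.000675). Cebpd, its early partner, stood at 9.46 and 9.33 at 4 hours and at 8.91 and 8.48 at day 2 and fell by 0.70 (SE 0.15, adjusted p = 0.00408). For both, the day 2 libraries lay below the 4 hour libraries. Cebpa, the late C/EBP factor, stood at 6.09 and 6.31 at 4 hours and at 8.94 and 9.40 at day 2 and rose by 2.97 (SE 0.22, adjusted p = 8.31e-06). Pparg, the master regulator of fat cells, stood at 8.98 and 9.07 at 4 hours and at 10.00 and 10.75 at day 2 and rose by 1.35 (SE 0.32, adjusted p = 0.00665). The 4 libraries did not overlap, and without day 2 replicate 2 the Pparg change was 0.98 with an adjusted p of 0.061. Ppargc1b, a coactivator of mitochondrial genes, stood at 2.25 and 1.68 at 4 hours and at 5.71 and 6.46 at day 2 and rose by 4.12 (SE 0.34, adjusted p = 1.49e-05). Srebf1, the driver of fatty acid synthesis genes, stood at 6.61 and 6.51 at 4 hours and at 8.53 and 8.76 at day 2 and rose by 2.08 (SE 0.14, adjusted p = 4.56e-06). Id2, an inhibitor of basic helix-loop-helix factors, moved the other way, at 10.54 and 10.40 at 4 hours and at 7.18 and 6.97 at day 2, and fell by 3.40 (SE 0.22, adjusted p = 3.91e-06).

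Markers of the preadipocyte state and Wnt genes gave 8 falls and 2 rises among 20 tested, with a median log2 change of -0.44. Dlk1, the preadipocyte factor Pref-1, stood at 12.68 and 12.29 at 4 hours and at 9.89 and 9.71 at day 2 and fell by 2.69 (SE 0.26, adjusted p = 3.75e-05). Dact1, a modulator of Wnt signalling, stood at 7.34 and 7.04 at 4 hours and at 5.26 and 4.89 at day 2 and fell by 2.11 (SE 0.20, adjusted p = 3.13e-05). Wnt11, a Wnt ligand, was low throughout, at 2.54 and 2.33 at 4 hours and at 0.26 and -0.12 at day 2, and fell by 2.37 (SE 0.23, adjusted p = 3.61e-05). Movement in the other direction was seen as well, since Tcf7l2, a nuclear effector of Wnt signalling, stood at 6.28 and 6.60 at 4 hours and at 7.40 and 7.50 at day 2 and rose by 1.01 (SE 0.19, adjusted p = 0.00197). With the block 4 members rose.

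The labelled cell type was checked against its markers over the 4 libraries. The summed level of 3 preadipocyte markers (Dlk1, Pdgfra, Pdgfrb) was 12.84 and 12.49 at 4 hours and 11.54 and 11.11 at day 2, on the log2 scale. That of 6 adipocyte markers (Pparg, Cebpa, Fabp4, Adipoq, Plin1, Cidec) was 10.63 and 11.22, and then 13.46 and 14.38. At 4 hours that sum came mostly from Fabp4, a fatty acid carrier, at 9.93 and 10.76 at 4 hours and at 12.82 and 13.71 at day 2, and from Pparg, while Plin1, Adipoq and Cidec stood far lower, as given above. Of the markers of other cells, the macrophage gene Ptprc was at most -5.57, the muscle gene Ckm at most -4.47, and the endothelial genes Pecam1, Kdr and Tek and the neuronal gene Snap25 at most 0.27. These are the markers that failed the filter on low levels, so they are low by that rule. With the tested markers included, the highest level was 5.75 for macrophage, 1.82 for endothelial, 4.515 for skeletal muscle and 6.04 for neuronal markers. Over the longer marker lists, 4 of 7 tested macrophage genes fell, 2 of 3 endothelial genes, 1 of 7 genes of muscle and bone and 2 of 7 genes of neurons and germ cells, and none rose. With the block 3 genes of muscle and bone fell and 3 of neurons and germ cells. The summed level of the macrophage markers was 5.82 and 5.55 at 4 hours and 4.85 and 4.66 at day 2, and that of the neuronal markers was 6.33 and 6.42, and then 4.30 and 4.24. Cd68, a lysosomal protein of macrophages that other cells also make, stood at 5.75 and 5.50 at 4 hours and at 4.72 and 4.59 at day 2 and fell by 0.97 (SE 0.24, adjusted p = 0.00802), with an adjusted p of 0.0533 without 4 hour replicate 1. Tubb3, a tubulin of neurons that other cells also make, stood at 4.13 and 3.98 at 4 hours and at 1.70 and 1.21 at day 2 and fell by 2.60 (SE 0.30, adjusted p = 9.83e-05). The part of such transcripts in the other results was not tested.

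Enzymes of lipid and mitochondrial metabolism rose in smaller steps than the fat cell markers. Of 21 genes of fatty acid synthesis and desaturation, 12 rose and 4 fell, with a median log2 change of 0.77. Thrsp, a lipogenic regulator, stood at 1.77 and 1.82 at 4 hours and at 4.72 and 4.54 at day 2 and rose by 2.83 (SE 0.29, adjusted p = 4.53e-05). Acss2, which makes acetyl-CoA from acetate, stood at 4.74 and 5.02 at 4 hours and at 6.40 and 6.54 at day 2 and rose by 1.59 (SE 0.16, adjusted p = 5.21e-05). Fasn, the fatty acid synthase itself, stood at 9.45 and 9.67 at 4 hours and at 9.85 and 10.81 at day 2, a log2 change of 0.77 (SE 0.34, adjusted p = 0.0929) that did not pass the test, and that passed with the block at an adjusted p of 0.00105. Elovl5, an elongase of polyunsaturated fatty acids, stood at 9.77 and 9.84 at 4 hours and at 8.49 and 8.76 at day 2 and fell by 1.18 (SE 0.16, adjusted p = 0.000289). The count of falls in the list went from 4 to 2 without 4 hour replicate 1, without 4 hour replicate 2 or without day 2 replicate 2.

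No gene of oxidative phosphorylation fell, with 34 of 46 genes called higher, 0 lower and a median log2 change of 0.68. Ndufb10, an accessory subunit of complex I, stood at 10.06 and 9.96 at 4 hours and at 10.97 and 11.03 at day 2 and rose by 0.99 (SE 0.11, adjusted p = 6.71e-05). Of the TCA cycle and fatty acid oxidation, 31 of 38 genes rose and 2 fell, with a median of 0.88. Hadh, an enzyme of beta-oxidation, stood at 8.11 and 8.02 at 4 hours and at 9.91 and 10.11 at day 2 and rose by 1.94 (SE 0.12, adjusted p = 3.09e-06). Acadm, the medium-chain acyl-CoA dehydrogenase, stood at 7.58 and 7.07 at 4 hours and at 9.68 and 9.65 at day 2 and rose by 2.33 (SE 0.18, adjusted p = 8.43e-06). Cpt1a, the liver-type gate of fatty acid entry into mitochondria, went the other way, at 8.88 and 8.83 at 4 hours and at 8.09 and 8.02 at day 2, and fell by 0.80 (SE 0.13, adjusted p = 0.000768). The list had 1 fall without either 4 hour library or without day 2 replicate 2.

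The sterol pathway moved less evenly. Of 22 genes of cholesterol synthesis, 6 rose and 2 fell. Nsdhl, a late enzyme of the pathway, stood at 6.65 and 6.94 at 4 hours and at 8.20 and 9.06 at day 2 and rose by 1.83 (SE 0.25, adjusted p = 0.000289). Fdps, which makes farnesyl diphosphate, stood at 5.55 and 5.88 at 4 hours and at 6.96 and 7.65 at day 2 and rose by 1.59 (SE 0.24, adjusted p = 0.000457). The row named Pmvk, phosphomevalonate kinase, went far the other way, at 11.74 and 12.11 at 4 hours and at 7.67 and 7.34 at day 2, and fell by 4.42 (SE 0.20, adjusted p = 5.83e-07), as it did in shLuc cells, where the change was -3.59. The count of rises was 12 with the block, 2 when 4 hour replicate 1 or day 2 replicate 2 was left out, and 10 without day 2 replicate 1.

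Mitosis genes had the highest share of rises among the lists. Of 58 tested genes of mitosis and cytokinesis, 55 rose and 1 fell, with a median log2 change of 1.84 in shKdm5ABC cells. The median level of the list was 4.77 at day 0, 4.62 at 4 hours and 6.63 at day 2. Cdca3, a trigger of mitotic entry, stood at 4.82 and 5.23 at 4 hours and at 7.83 and 7.84 at day 2 and rose by 2.81 (SE 0.17, adjusted p = 2.67e-06). Cenpi, a centromere protein, stood at 4.05 and 3.89 at 4 hours and at 6.23 and 6.20 at day 2 and rose by 2.24 (SE 0.15, adjusted p = 4.9e-06). Bub1b, a spindle checkpoint kinase, stood at 4.74 and 4.82 at 4 hours and at 7.56 and 7.42 at day 2 and rose by 2.71 (SE 0.18, adjusted p = 4.9e-06). In all of them the libraries of a time lay close together, by far less than the change. Racgap1, a component of the central spindle, was the exception, at 8.27 and 8.45 at 4 hours and at 7.60 and 7.48 at day 2, and fell by 0.82 (SE 0.19, adjusted p = 0.00613). Bub3, a checkpoint protein, and Cdc25b, a phosphatase of mitotic entry, did not pass the test.

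Of 55 genes of DNA replication and nucleotide synthesis, 41 rose and 5 fell, with a median log2 change of 1.10. Cdc45, a subunit of the replicative helicase, stood at 4.90 and 4.84 at 4 hours and at 7.70 and 7.30 at day 2 and rose by 2.63 (SE 0.19, adjusted p = 7.41e-06). Mcm5, a subunit of the MCM2-7 helicase ring, stood at 5.84 and 5.52 at 4 hours and at 7.98 and 7.88 at day 2 and rose by 2.25 (SE 0.19, adjusted p = 1.46e-05). Timeless, a protein of the replication fork, stood at 4.25 and 3.98 at 4 hours and at 6.36 and 6.12 at day 2 and rose by 2.12 (SE 0.18, adjusted p = 1.88e-05). The 5 genes that fell were Rrm2, Dnmt1, Fen1, Rrm1 and Pcna, of which all but Rrm2 are named after their values were seen. The members of ribonucleotide reductase and the clamp show the course. Rrm2, the small subunit of ribonucleotide reductase, stood at 6.13 and 6.74 at day 0, at 9.99 and 10.48 at 4 hours and at 8.66 and 8.82 at day 2, and fell by 1.50 (SE 0.21, adjusted p = 0.000343) over the interval. Rrm1, its large subunit, stood at 8.53 and 8.67 at day 0, at 9.30 and 9.48 at 4 hours and at 8.78 and 8.99 at day 2, and fell by 0.50 (SE 0.15, adjusted p = 0.019). Pcna, the sliding clamp, stood at 7.85 and 7.73 at day 0, at 9.51 and 9.39 at 4 hours and at 9.16 and 8.85 at day 2, and fell by 0.44 (SE 0.16, adjusted p = 0.0446). These 3 were above both day 0 libraries at 4 hours and still above them at day 2. Without 4 hour replicate 2 the count of falls was 3.

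DNA repair and checkpoint genes gave 26 rises and 1 fall among 37, with a median of 0.92. Fancd2, the central protein of the Fanconi pathway, stood at 2.02 and 2.52 at 4 hours and at 5.30 and 5.37 at day 2 and rose by 3.07 (SE 0.21, adjusted p = 5.45e-06). Among 25 genes of G1 cyclins, E2F and RB, 9 rose and 2 fell. E2f2, an activator E2F, stood at 0.70 and 1.10 at 4 hours and at 3.47 and 4.0 at day 2 and rose by 2.83 (SE 0.29, adjusted p = 5.23e-05). Lin9, a subunit of the complex that controls mitotic genes, stood at 3.97 and 3.99 at 4 hours and at 5.54 and 5.72 at day 2 and rose by 1.65 (SE 0.16, adjusted p = 4.12e-05). Ccnd3, a D-type cyclin, stood at 10.83 and 11.12 at 4 hours and at 9.95 and 10.08 at day 2 and fell by 0.96 (SE 0.12, adjusted p = 0.000183). With the block 5 genes of this list fell, and 1 fell when any library of the comparison was left out. Of 11 replication-dependent histone genes 8 rose, with a median of 1.05, and 4 or 5 rose when any library of the comparison was left out. Histone genes are near-identical copies and many lack a polyA tail, so their values are uncertain.

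The promoters of the mitosis and replication genes with the smallest p carry short sequences known from cell cycle genes. CCAAT is the box bound by NF-Y, TTTGAA is the core of the cell cycle homology region (CHR) of mitotic genes, and E2F factors bind TTTCCCGC, TTTGGCGC, TTTCGCGC or TTTGCCGC. CCAAT and the E2F letters can share bases. The windows below run from 250 bases before to 50 bases after the RefSeq start (GRCm38.p6) and are written 5′ to 3′ on the strand of the gene. They belong to Cdca3 (chr6:124829926-124830225, plus strand), Cenpi (chrX:134307834-134308133, plus strand), Cdc45 (chr16:18811923-18812222, minus strand) and Mcm5 (chr8:75109259-75109558, plus strand). They are shown because these genes had the smallest p of the mitosis and replication lists. Capitals mark a match of these motifs on either strand.
Cdca3: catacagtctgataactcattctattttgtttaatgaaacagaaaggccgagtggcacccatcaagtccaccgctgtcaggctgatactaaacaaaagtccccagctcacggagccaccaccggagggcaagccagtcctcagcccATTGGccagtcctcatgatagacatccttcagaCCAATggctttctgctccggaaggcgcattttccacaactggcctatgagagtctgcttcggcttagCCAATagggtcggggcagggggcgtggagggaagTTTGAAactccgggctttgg
Cenpi: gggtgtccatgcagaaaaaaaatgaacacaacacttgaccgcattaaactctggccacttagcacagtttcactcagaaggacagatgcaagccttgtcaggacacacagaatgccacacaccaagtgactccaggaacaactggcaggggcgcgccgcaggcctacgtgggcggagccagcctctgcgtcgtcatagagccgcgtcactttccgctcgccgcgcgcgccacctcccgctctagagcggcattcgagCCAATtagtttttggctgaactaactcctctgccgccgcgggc
Cdc45: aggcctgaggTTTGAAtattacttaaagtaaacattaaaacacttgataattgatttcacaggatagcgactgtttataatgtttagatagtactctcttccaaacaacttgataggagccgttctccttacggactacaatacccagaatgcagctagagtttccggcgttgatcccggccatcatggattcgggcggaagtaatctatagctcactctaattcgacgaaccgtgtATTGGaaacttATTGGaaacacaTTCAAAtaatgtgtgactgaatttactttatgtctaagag
Mcm5: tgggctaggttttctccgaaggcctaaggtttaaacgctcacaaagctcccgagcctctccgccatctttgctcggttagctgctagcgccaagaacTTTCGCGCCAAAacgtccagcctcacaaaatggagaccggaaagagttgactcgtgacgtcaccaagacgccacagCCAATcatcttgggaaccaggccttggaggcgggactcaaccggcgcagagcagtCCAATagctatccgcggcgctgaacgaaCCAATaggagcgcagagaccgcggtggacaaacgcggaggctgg
Counted from the start site, Cdca3 held CCAAT from bases -104, -71 and -4 and TTTGAA from base 31. The window of Cenpi held a single CCAAT, from base 8. Cdc45 held CCAAT from bases -13 and -2 and TTTGAA from bases -240 and 11. In Mcm5 CCAAT began at bases -77, -22 and 7, and a pair of overlapping E2F matches at bases -153 and -149.

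Shares of promoters with a motif are given over the lists as a description, with no test. TTTGAA was found in 67.3% of 49 mitosis promoters and in 18.1% of 27025 promoters in all. CCAAT was found in 73.5% of them against 37.9%, and both together in 57.1% against 7.1%. An E2F motif was found in 8.2% of mitosis promoters against 2.3% of all. Among 2210 promoters of all genes called higher at day 2 the shares were 14.3% for TTTGAA, 43.3% for CCAAT, 7.47% for both and 5.29% for an E2F motif. High shares of CCAAT were not limited to mitosis genes, with 75.0% of 16 clock gene promoters, 70.0% of 30 of the stress response list and 64.7% of 17 of the fatty acid synthesis list. Replication promoters had another profile. Of 45 with an entry, 28.9% held an E2F motif, 60.0% held CCAAT and 15.6% held TTTGAA. In the triglyceride and lipid droplet list, 25.0% of 16 promoters held CCAAT and none held TTTGAA or an E2F motif. Lists in which under 80% of tested genes had a promoter entry are not given, since the check is void for them. Other motifs searched were TGACGTCA (cAMP response element), TGAGTCA or TGACTCA (AP-1), the interferon response motif and CACGTG (E-box). They were found in 8.16%, 0.0%, 8.16% and 8.16% of mitosis promoters and in 2.22%, 2.22%, 0.0% and 13.3% of replication promoters. The shares in all promoters were 1.88%, 5.17%, 3.49% and 7.24%. A match is a string of letters in this window and does not show binding.

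Genes of the first response to the cocktail were lower at day 2. Of 20 immediate-early and AP-1 genes, 12 fell and 1 rose, with a median log2 change of -1.17 and median levels of 6.97 at day 0, 8.04 at 4 hours and 6.84 at day 2. Maff, a small Maf factor, stood at 8.25 and 8.16 at 4 hours and at 4.20 and 3.68 at day 2 and fell by 4.27 (SE 0.23, adjusted p = 1.9e-06). Ier3, an early survival gene, stood at 8.56 and 8.70 at 4 hours and at 5.50 and 5.09 at day 2 and fell by 3.34 (SE 0.30, adjusted p = 2.09e-05). Fosl2, an AP-1 subunit, stood at 10.18 and 9.63 at 4 hours and at 7.79 and 7.49 at day 2 and fell by 2.26 (SE 0.20, adjusted p = 2.25e-05). Egr2, the zinc finger factor Krox20, went the other way, at 5.22 and 4.54 at 4 hours and at 6.38 and 6.44 at day 2, and rose by 1.53 (SE 0.42, adjusted p = 0.0143). Its adjusted p was 0.102 without 4 hour replicate 2, 0.0503 without day 2 replicate 1 and 0.0635 without day 2 replicate 2. Myc, the growth-promoting factor, was level, with 9.65 and 9.26 at 4 hours and 9.65 and 9.19 at day 2 after 4.65 and 6.17 at day 0, and its log2 change was -0.03 (SE 0.44, adjusted p = 0.966).

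Hormone targets fell more often than they rose. Of 19 cAMP-response genes 13 fell and 2 rose, with a median of -0.94. Nr4a2, an orphan nuclear receptor induced by cAMP, stood at 6.64 and 6.41 at 4 hours and at 3.44 and 2.85 at day 2 and fell by 3.38 (SE 0.27, adjusted p = 1.32e-05). Dusp1, a MAP kinase phosphatase that cAMP, glucocorticoid and growth factors all induce, stood at 11.14 and 11.01 at 4 hours and at 8.80 and 8.33 at day 2 and fell by 2.51 (SE 0.17, adjusted p = 4.31e-06). Cited2, a transcriptional coregulator, stood at 7.15 and 7.25 at 4 hours and at 8.80 and 8.83 at day 2 and rose by 1.62 (SE 0.21, adjusted p = 0.00021). The list had 1 rise without 4 hour replicate 2 or without day 2 replicate 2. Of 20 glucocorticoid targets 9 fell and 4 rose. The metallothionein Mt2 stood at 14.29 and 14.45 at 4 hours and at 11.30 and 11.53 at day 2 and fell by 2.95 (SE 0.13, adjusted p = 5.83e-07), and its near copy Mt1 stood at 14.87 and 14.65 at 4 hours and at 12.32 and 12.42 at day 2 and fell by 2.39 (SE 0.20, adjusted p = 1.53e-05). For both, the day 2 libraries lay below the 4 hour libraries. MAP kinase feedback genes gave 6 falls and 2 rises among 15. Errfi1, an inhibitor of the EGF receptor, stood at 12.09 and 12.18 at 4 hours and at 10.30 and 9.91 at day 2 and fell by 2.04 (SE 0.21, adjusted p = 4.78e-05). Spry1, a brake on receptor tyrosine kinases, stood at 6.42 and 6.33 at 4 hours and at 8.55 and 8.21 at day 2 and rose by 2.0 (SE 0.18, adjusted p = 2.46e-05).

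Secreted signals fell more often than they rose. Of 26 growth factors and cytokines 15 fell and 2 rose, with a median of -0.90. Ereg, an EGF receptor ligand, stood at 7.11 and 7.61 at 4 hours and at 3.57 and 3.49 at day 2 and fell by 3.83 (SE 0.27, adjusted p = 5.6e-06). Csf1, the macrophage growth factor, stood at 9.55 and 9.80 at 4 hours and at 6.17 and 6.0 at day 2 and fell by 3.58 (SE 0.18, adjusted p = 8.26e-07). Fgf10, a growth factor of fat development, stood at 7.47 and 7.35 at 4 hours and at 9.15 and 9.21 at day 2 and rose by 1.77 (SE 0.25, adjusted p = 0.000372). Of 21 inflammatory and NF-kB genes 13 fell and 3 rose, with a median of -1.50. Nfkbia, the inhibitor of NF-kB that NF-kB itself induces, stood at 10.19 and 10.31 at 4 hours and at 8.85 and 8.95 at day 2 and fell by 1.35 (SE 0.11, adjusted p = 1.7e-05). Ccl9, a chemokine, stood at 5.65 and 5.74 at 4 hours and at 2.79 and 2.72 at day 2 and fell by 2.94 (SE 0.26, adjusted p = 2.05e-05). Orm1, an acute phase protein with near-identical neighbours, stood at 3.74 and 3.99 at 4 hours and at 6.64 and 7.03 at day 2 and rose by 2.97 (SE 0.25, adjusted p = 1.73e-05).

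The 10 lowest changes among called transcripts are given next. Fgl2, a secreted fibrinogen-like protein, stood at 3.13 and 3.24 at day 0, at 9.54 and 9.68 at 4 hours and at 2.67 and 2.27 at day 2, and fell by 7.14 (SE 0.19, adjusted p = 2.36e-08). Il1rl1, the receptor of interleukin 33, stood at 6.11 and 6.55 at day 0, at 10.72 and 10.96 at 4 hours and at 3.60 and 3.98 at day 2, and fell by 7.05 (SE 0.23, adjusted p = 6.71e-08). Ramp3, a partner of calcitonin-type receptors, stood at 10.54 and 10.52 at 4 hours and at 5.15 and 4.44 at day 2 and fell by 5.74 (SE 0.28, adjusted p = 8.26e-07). Fgl2 and Il1rl1 at day 2 were below their own day 0 levels. Pdpn, the membrane glycoprotein podoplanin, stood at 10.38 and 10.39 at 4 hours and at 5.07 and 4.97 at day 2 and fell by 5.37 (SE 0.11, adjusted p = 5.2e-09). Vdr, the vitamin D receptor, stood at 12.44 and 12.33 at 4 hours and at 7.81 and 7.84 at day 2 and fell by 4.56 (SE 0.13, adjusted p = 4.84e-08). Elfn1, Mamdc2 and Pxdc1 fell by 5.07, 5.04 and 4.52, and a transcript listed only by its RefSeq ID, NM_207666, fell by 5.61.

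Acta2, smooth muscle actin, completed the 10 and belonged to a list in which no member rose. It stood at 10.41 and 9.71 at 4 hours and at 5.04 and 3.76 at day 2 and fell by 5.65 (SE 0.55, adjusted p = 3.43e-05). Of 25 targets of SRF and contractile genes 17 fell and 0 rose, with a median log2 change of -1.40. Tes, a focal adhesion protein, stood at 8.07 and 8.28 at 4 hours and at 5.25 and 5.01 at day 2 and fell by 3.05 (SE 0.14, adjusted p = 7.26e-07). Flna, an actin crosslinker, stood at 11.74 and 11.94 at 4 hours and at 10.15 and 9.87 at day 2 and fell by 1.83 (SE 0.13, adjusted p = 6.85e-06). Itga5, the fibronectin receptor subunit, stood at 11.53 and 11.80 at 4 hours and at 9.37 and 8.93 at day 2 and fell by 2.52 (SE 0.18, adjusted p = 6.85e-06). The replicates of Acta2 lay further apart than those of the other genes, with replicate 2 lower at both times.

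Extracellular matrix genes fell in most cases. Of 41 matrix glycoproteins and crosslinkers 34 fell and 1 rose, with a median of -1.47. Lox, an enzyme that crosslinks collagen and elastin, stood at 11.42 and 11.56 at 4 hours and at 8.84 and 8.16 at day 2 and fell by 2.99 (SE 0.20, adjusted p = 3.95e-06). Thbs2, thrombospondin 2, stood at 9.62 and 9.67 at 4 hours and at 7.04 and 6.50 at day 2 and fell by 2.88 (SE 0.19, adjusted p = 4.76e-06). Lama4, a laminin chain of the adipocyte basement membrane, stood at 8.57 and 8.49 at 4 hours and at 9.46 and 9.42 at day 2 and rose by 0.91 (SE 0.13, adjusted p = 0.000412). With the block, or without 4 hour replicate 2, 2 members rose. Of 23 collagen genes 13 fell and 3 rose, with a median of -0.80. Col12a1, a fibril-associated collagen, stood at 9.53 and 9.44 at 4 hours and at 7.18 and 6.65 at day 2 and fell by 2.58 (SE 0.22, adjusted p = 1.87e-05). Col15a1, a basement membrane collagen, stood at 4.72 and 4.80 at 4 hours and at 7.38 and 7.23 at day 2 and rose by 2.54 (SE 0.17, adjusted p = 3.91e-06). With the block 5 collagens rose. Among 22 metalloproteinases and their inhibitors 12 fell and 2 rose. Timp3, a matrix-bound inhibitor, stood at 7.38 and 8.21 at 4 hours and at 4.32 and 4.30 at day 2 and fell by 3.48 (SE 0.33, adjusted p = 3.26e-05). Mmp3, stromelysin 1, stood at 7.14 and 7.43 at 4 hours and at 4.28 and 4.71 at day 2 and fell by 2.79 (SE 0.22, adjusted p = 1.15e-05). Adamts5, an aggrecanase, stood at 5.18 and 4.58 at 4 hours and at 7.06 and 6.96 at day 2 and rose by 2.13 (SE 0.19, adjusted p = 2.35e-05).

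Interferon-stimulated genes fell as well. Of 44 tested 24 fell and 1 rose, with a median log2 change of -0.81 and median levels of 6.69 at day 0, 5.09 at 4 hours and 4.14 at day 2. B2m, the light chain of MHC class I, stood at 13.87 and 14.10 at 4 hours and at 11.67 and 11.57 at day 2 and fell by 2.36 (SE 0.17, adjusted p = 6.83e-06). Isg15, a ubiquitin-like modifier, stood at 6.72 and 7.34 at 4 hours and at 4.74 and 4.40 at day 2 and fell by 2.46 (SE 0.23, adjusted p = 3.22e-05). Bst2, the antiviral protein tetherin, stood at 10.64 and 10.52 at 4 hours and at 8.82 and 8.42 at day 2 and fell by 1.96 (SE 0.19, adjusted p = 3.57e-05). Irf1, a transcription factor of the interferon response, was the exception, at 5.24 and 4.89 at 4 hours and at 7.28 and 7.16 at day 2, and rose by 2.16 (SE 0.14, adjusted p = 3.79e-06). With the block 2 members rose. The cells of both hairpins had been exposed to lentivirus, and RNA from untransduced cells was not analysed here.

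Growth and stress genes moved in smaller steps. Of 36 genes of ribosome biogenesis and MYC targets 15 fell and 0 rose, with a median of -0.33. Rrp1b, a nucleolar protein, stood at 8.77 and 8.54 at 4 hours and at 7.73 and 7.56 at day 2 and fell by 1.01 (SE 0.16, adjusted p = 0.000738). Bop1, a factor of large subunit assembly, stood at 9.49 and 9.53 at 4 hours and at 8.68 and 8.73 at day 2 and fell by 0.80 (SE 0.10, adjusted p = 0.00019). The count of falls was 8 without day 2 replicate 1, and with the block 1 member rose. Ribosomal protein genes gave 5 rises and 0 falls among 46, 15 and 6 with the block, and 1 to 2 rises without 4 hour replicate 1 or either day 2 library. The sign of their median change of 0.13 turned under another setting, and these genes have many pseudogene copies, so no direction is given. In the MYC, MAX and MXD network 3 of 10 genes rose and 4 fell. Mxd1, a repressor partner of MAX, stood at 8.27 and 8.49 at 4 hours and at 6.55 and 6.83 at day 2 and fell by 1.69 (SE 0.17, adjusted p = 3.79e-05), while Mxd4, a related repressor, stood at 8.07 and 8.21 at 4 hours and at 9.41 and 9.38 at day 2 and rose by 1.26 (SE 0.15, adjusted p = 0.000114). Leaving out any library of the comparison left 1 or 2 falls.

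Chaperones and stress genes were mixed. Of 19 heat shock genes 9 fell and 3 rose. With the block 5 rose, and without 4 hour replicate 1 or day 2 replicate 2 there was 1 rise. Cryab, a small heat shock protein, stood at 8.11 and 8.55 at 4 hours and at 5.39 and 4.30 at day 2 and fell by 3.48 (SE 0.30, adjusted p = 1.78e-05). Hspe1, a mitochondrial chaperonin, stood at 10.14 and 10.05 at 4 hours and at 10.55 and 10.59 at day 2 and rose by 0.47 (SE 0.10, adjusted p = 0.00479). Of 33 genes of the unfolded protein and integrated stress responses 7 rose and 8 fell. Hspa5, the ER chaperone BiP, stood at 13.41 and 13.79 at 4 hours and at 12.08 and 12.25 at day 2 and fell by 1.43 (SE 0.21, adjusted p = 0.000422). Chac1, a glutathione-degrading enzyme of the ATF4 branch, stood at 4.08 and 3.82 at 4 hours and at 6.38 and 6.98 at day 2 and rose by 2.72 (SE 0.24, adjusted p = 1.87e-05). With the block 11 members rose and 11 fell, and without 4 hour replicate 2 there were 5 falls. Glycolysis and hypoxia genes gave 7 falls and 1 rise among 26, 3 rises with the block and 2 without 4 hour replicate 2 or day 2 replicate 1. Adm, the hypoxia-induced peptide adrenomedullin, stood at 6.84 and 6.73 at 4 hours and at 3.83 and 3.57 at day 2 and fell by 3.08 (SE 0.24, adjusted p = 9.69e-06). Pfkm, the muscle-type phosphofructokinase, stood at 7.03 and 6.93 at 4 hours and at 8.37 and 8.27 at day 2 and rose by 1.34 (SE 0.13, adjusted p = 3.61e-05).

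CDK inhibitors and p53 targets gave 7 falls and 5 rises among 27, and 14 falls with the block. Cdkn1a, the CDK inhibitor p21, stood at 11.58 and 11.82 at 4 hours and at 10.41 and 10.76 at day 2 and fell by 1.12 (SE 0.15, adjusted p = 0.000252). Sesn3, a sestrin of the FOXO and p53 pathways, stood at 6.68 and 6.63 at 4 hours and at 8.07 and 8.15 at day 2 and rose by 1.45 (SE 0.11, adjusted p = 1.02e-05). Without 4 hour replicate 2 the list gave 3 rises. Of 19 clock genes 6 rose and 4 fell. Nr1d1, the repressor REV-ERBa, stood at 5.72 and 5.90 at 4 hours and at 7.10 and 7.07 at day 2 and rose by 1.28 (SE 0.16, adjusted p = 0.000151). Cry1, a core clock repressor, stood at 7.39 and 7.48 at 4 hours and at 5.90 and 6.07 at day 2 and fell by 1.45 (SE 0.13, adjusted p = 2.35e-05). The hour of the day at harvest is not given in the sources used here.

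**Figure D2:**
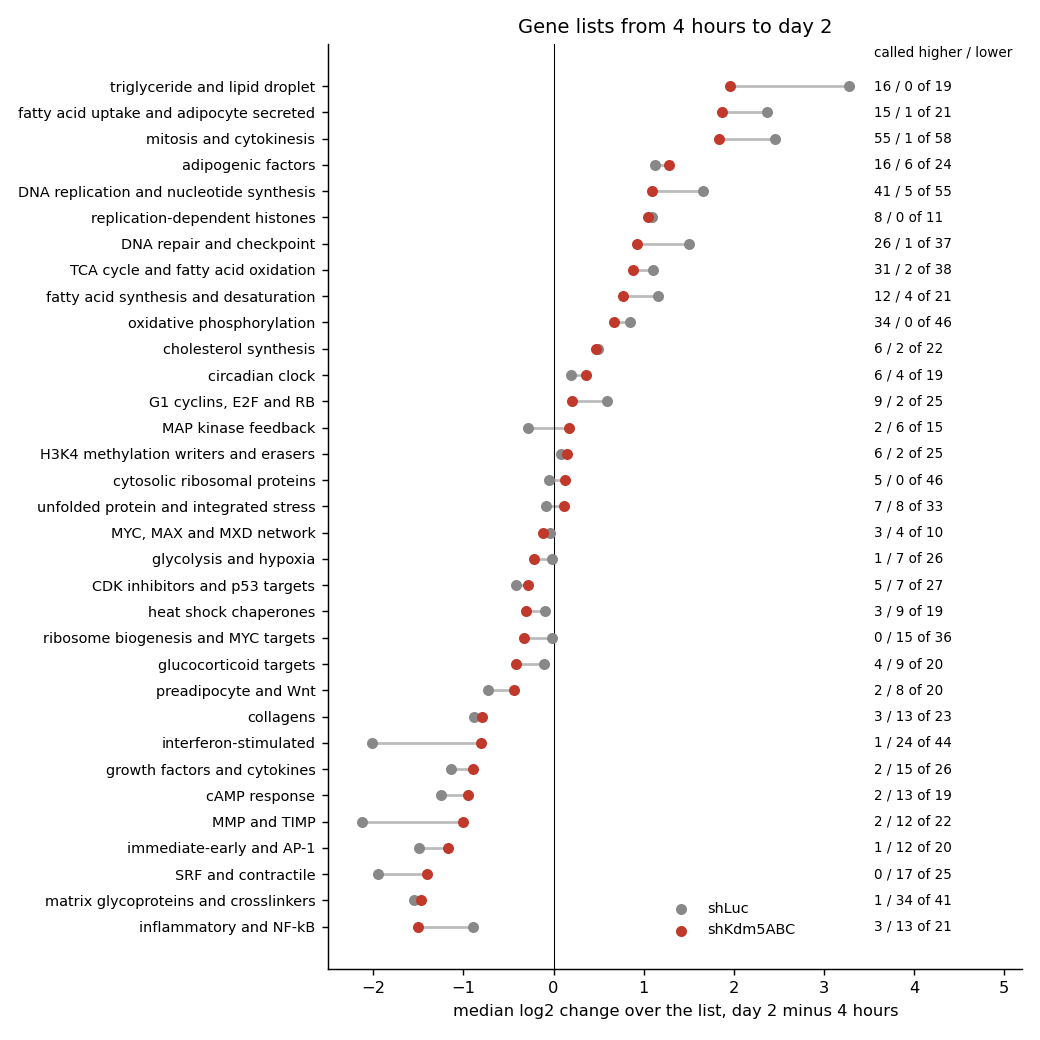
Median log2 change from 4 hours to day 2 (x axis) over the tested members of each gene list with 10 or more members (y axis), in shKdm5ABC cells (red) and shLuc cells (grey), with the number of members called higher and lower in shKdm5ABC cells at the right. Lipid and mitosis lists lie at the top, with medians of 1.96 and 1.84 in shKdm5ABC cells, and the interferon-stimulated list shows one of the widest gaps between the hairpins, -0.81 against -2.01.

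The same interval was compared in shLuc cells, to ask which changes also occurred without the knockdown. There 6284 transcripts were called (46.4%), 3097 higher (22.9%) and 3187 lower (23.5%). Both comparisons called 4521 transcripts, 4500 of them in the same direction, which is 80.6% of the shKdm5ABC calls and 71.6% of the shLuc calls. Of those called in both, 2966 (65.6%) changed by less in shKdm5ABC cells. Across the 13534 transcripts the changes had a Pearson correlation of 0.902 and a slope of 0.776 of shKdm5ABC on shLuc, as a description over genes that are not independent. The 2 changes share no library.

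**Figure D3:**
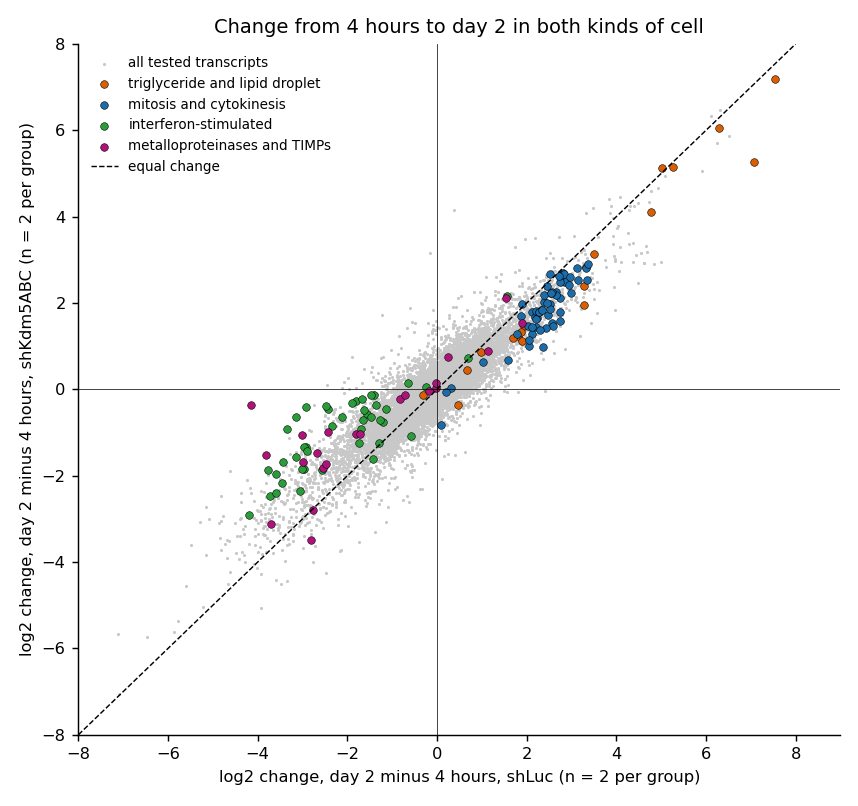
Log2 change from 4 hours to day 2 in shKdm5ABC cells (y axis) against that in shLuc cells (x axis) for 13534 tested transcripts, with members of 4 lists in colour and the line of equal change dashed. Mitosis genes lie mostly below the line in the upper right, 56 of 58 with a smaller value in shKdm5ABC cells, and interferon-stimulated genes lie mostly above it in the lower left.

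The difference between the changes, shKdm5ABC minus shLuc, was called for 20 transcripts, all of them higher (0.148% in either direction and 0.148% higher), and for none lower (0.0%). At an unadjusted p under 0.05 there were 1725 transcripts, 993 higher and 732 lower. With the replicate number as a block 1177 were called (8.7%), 716 higher (5.29%) and 461 lower (3.41%). The count thus rests on how the spread is modelled. Same-numbered replicates deviated together in all 15 pairs of groups (correlation 0.381 to 0.657), which the fit without the block leaves in the spread. Single libraries moved the count as well, in fits without the block. Leaving out shLuc 4 hour replicate 1, shKdm5ABC 4 hour replicate 2 or shKdm5ABC day 0 replicate 2 gave a count of 0, and leaving out shKdm5ABC day 2 replicate 2 gave 151. With any other library of these 4 groups left out, 1 to 5 were called.

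Of the 20, 16 fell in shLuc cells, against 23.5% of all tested transcripts. All 20 had a positive difference, which itself favours a fall there, so this count is no separate result. In shKdm5ABC cells 8 of the 16 fell too, 5 did not pass the test and 3 rose. Of the 5, Lpar1 and Nynrin passed with the block, at adjusted p-values of 0.0104 and 0.0219. Mmp13, collagenase 3, stood at 6.26 and 5.50 at 4 hours and at 6.08 and 4.97 at day 2 in shKdm5ABC cells and at 8.31 and 7.69 and then 4.09 and 3.58 in shLuc cells. Its changes were -0.35 and -4.16, a difference of 3.81 (SE 0.55, adjusted p = 0.0459). Vegfd, a lymphatic growth factor, stood at 6.54 and 6.54 at 4 hours and at 6.80 and 6.33 at day 2 in shKdm5ABC cells and at 7.52 and 7.46 and then 5.37 and 5.38 in shLuc cells. Its difference was 2.14 (SE 0.21, adjusted p = 0.0167). For both genes the shKdm5ABC libraries of both times overlapped, and the shLuc libraries did not. Lbh, a developmental transcription cofactor, stood at 6.07 and 6.38 at 4 hours and at 6.39 and 6.09 at day 2 and, in shLuc cells, at 6.67 and 6.54 and then 4.54 and 4.76, a difference of 1.97 (SE 0.26, adjusted p = 0.0298). Olfml3, a secreted matrix protein, fell in both, at 8.23 and 8.43 at 4 hours and at 7.15 and 7.42 at day 2 in shKdm5ABC cells and at 8.26 and 8.22 and then 5.12 and 5.48 in shLuc cells. Its difference was 1.90 (SE 0.21, adjusted p = 0.024). Clca3a1, a secreted chloride channel regulator, stood at 10.97 and 10.80 at 4 hours and at 8.58 and 8.40 at day 2 and, in shLuc cells, at 11.30 and 10.73 and then 6.71 and 6.60, a difference of 1.97 (SE 0.24, adjusted p = 0.0298).

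Other transcripts rose in shKdm5ABC cells. Adh7, an alcohol and retinol dehydrogenase, stood at 5.99 and 5.53 at 4 hours and at 7.78 and 7.49 at day 2 in shKdm5ABC cells and at 5.92 and 5.33 and then 5.21 and 4.82 in shLuc cells, a difference of 2.49 (SE 0.32, adjusted p = 0.0298). At day 0 its level was 8.09 and 8.14 in shKdm5ABC cells, above all libraries of the later times. Ifi208, an interferon-inducible gene of a family of close copies, was named after its values were seen. It stood at 1.46 and 0.49 at 4 hours and at 4.24 and 4.01 at day 2, and in shLuc cells at 1.45 and 1.29 and then 1.06 and 1.35, a difference of 3.32 (SE 0.43, adjusted p = 0.0298). Among others of the 20, Ctso, Antxr2, Lipa and Sord also rose in shKdm5ABC cells. Man2b2, Stat2, Fn1, Creb3l1, Col4a5 and Aebp1 fell there, and Lpar1 and Nynrin did not pass the test. The differences of these transcripts ranged from 1.08 to 1.88. All 20 were called with the block too.

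**Figure D4:**
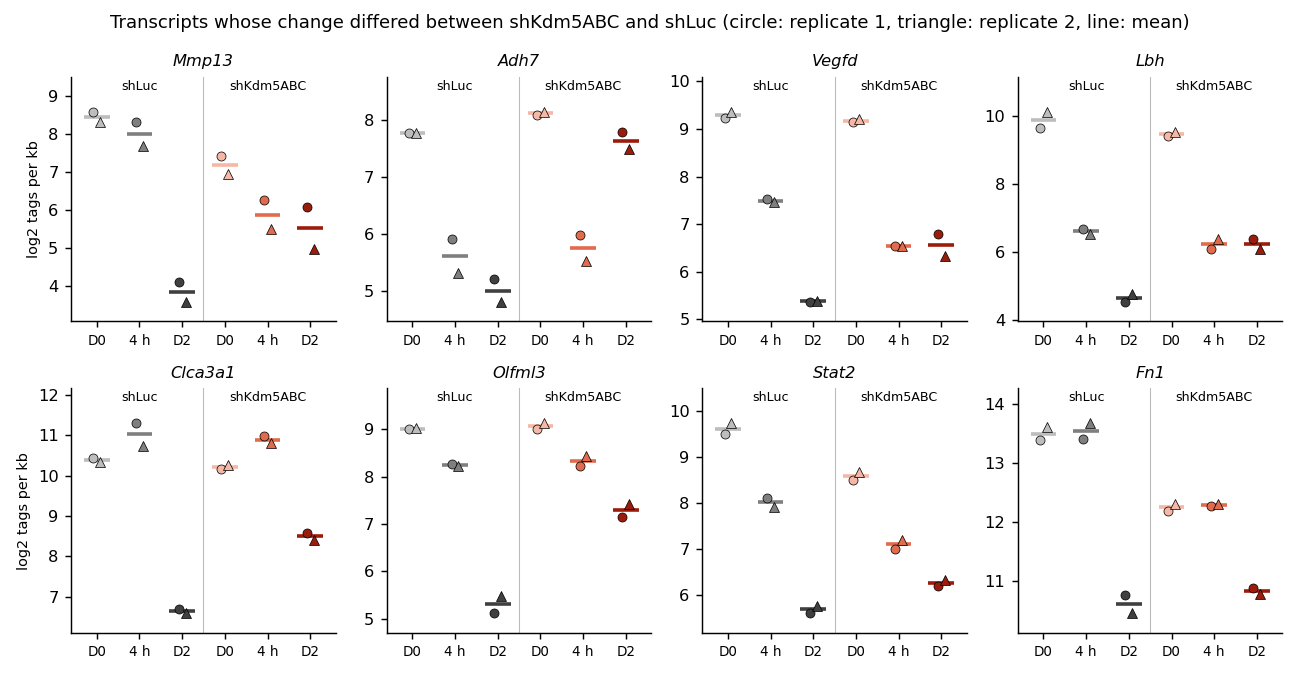
Log2 level (log2 tags per kb, y axis) in each of the 12 RNA libraries by hairpin and time (x axis) for 8 transcripts called for the difference between the changes. Circles are replicate 1, triangles replicate 2 and lines the mean of both. At day 2 the shKdm5ABC mean lies above the shLuc mean in every panel, with the libraries of Mmp13 at 6.08 and 4.97 against 4.09 and 3.58. At 4 hours it lies above the shLuc mean for Adh7 and Olfml3 and below it in the other panels. The 4 hour means were 12.28 against 13.55 for Fn1 and 7.10 against 8.02 for Stat2, so a difference can come from either time.

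By list, the difference leaned one way or the other. Cell cycle lists were among those with mostly negative differences. The difference was negative for 56 of 58 mitosis genes, with a median of -0.50, and 11 were called lower with the block. It was negative for 53 of 55 replication genes, with a median of -0.46, and 12 were called lower with the block. Over all tested transcripts it was negative for 6960 of 13534, and 461 were called lower with the block (3.41%). That background mixes transcripts that rose with those that fell. With the slope of 0.776 over all transcripts, a list that rose in shLuc cells leans toward negative differences. A list that fell there leans toward positive ones. In shLuc cells the median change was 2.46 for mitosis and 1.66 for replication genes. Whether any list differed beyond the slope was not tested. The log2 change of Rrm2 was -1.50 in shKdm5ABC cells and 0.25 in shLuc cells, where it stood at 9.30 and 9.49 and then 9.75 and 9.54. Its difference was -1.75, with an adjusted p of 0.0593 and of 0.00288 with the block. Ribosome biogenesis genes had a negative difference in 35 of 36, with a median of -0.34, and 3 were called lower with the block. Metabolic and chaperone lists leaned the same way. The difference was negative for 33 of 38 genes of the TCA cycle and fatty acid oxidation, with a median of -0.35 and 8 called lower with the block. It was negative for 42 of 46 genes of oxidative phosphorylation, with 2 called lower with the block, and for 17 of 19 heat shock genes, with 3 called lower with the block.

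Log2 changes of interferon-stimulated genes were mostly less negative in shKdm5ABC cells. The list's median change was -0.81 against -2.01 in shLuc cells, where 38 of 44 fell. The difference was positive for all but 2 members, with a median of 1.23. With the block 24 were called higher, against 5.29% of all transcripts, and without it 1 was, Stat2, a transcription factor of the interferon receptor. Bst2 stood at 10.64 and 10.52 at 4 hours and at 8.82 and 8.42 at day 2 in shKdm5ABC cells and at 12.02 and 11.52 and then 8.30 and 8.07 in shLuc cells. Its difference was 1.62, with an adjusted p of 0.0593 and of 0.000578 with the block. The 4 hour libraries of shKdm5ABC cells were lower than those of shLuc cells for Bst2 and Isg15, and at day 2 the hairpins were closer, with Isg15 at 4.74 and 4.40 against 4.97 and 5.07. For metalloproteinases and TIMPs the median change was -1.0 against -2.12, and 8 of 22 were called higher with the block.

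The triglyceride list had mostly negative differences as well, and other adipocyte lists were less even. The median change of the triglyceride list was 1.96 against 3.27 in shLuc cells, none of its members was called for the difference, and 3 were called lower with the block, against 3.41% of all transcripts. The median difference was -0.49, and 17 of 19 members had a negative one. For fatty acid uptake and adipocyte secretion 15 of 21 were negative, and 2 were called lower with the block. For adipogenic factors 15 of 24 were negative, with a median of -0.08, and 2 were called higher and 2 lower with the block. For fatty acid synthesis and desaturation 12 of 21 were negative, and 4 were called higher and 2 lower with the block. Pparg changed by 1.35 in shKdm5ABC cells and by 2.65 in shLuc cells, where it stood at 8.34 and 8.54 and then 10.85 and 11.32. Its difference was -1.29, with an adjusted p of 0.253 and of 0.00884 with the block. Cidec changed by 7.20 and 7.54, and Lipe by 5.15 and 5.27, and neither was called with or without the block. Adipocyte genes also varied between replicates. Replicate 2 of shKdm5ABC cells at day 0 stood apart from replicate 1, with Cidec at 3.68 and 6.98, for replicates 1 and 2, and this library enters the shared spread. At day 2 the shKdm5ABC replicate 1 library correlated with the shLuc day 2 libraries at 0.981 and 0.971 across genes, and replicate 2 at 0.984 and 0.986.

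Among transcripts called in both kinds of cell, 21 went in opposite directions, 16 of them higher in shKdm5ABC cells. All 21 were called for the difference with the block and 3 without it, Adh7, Lipa and Antxr2. Of all transcripts 8.7% were called with the block. The choice of opposite calls itself favours a call for the difference, so this is no separate support. E2f8, a repressor E2F that ends S phase transcription, stood at 6.07 and 6.29 at 4 hours and at 5.68 and 5.46 at day 2 in shKdm5ABC cells and at 5.17 and 5.53 and then 6.35 and 5.98 in shLuc cells. Igf2r, the receptor that clears IGF2, stood at 10.03 and 10.29 at 4 hours and at 10.78 and 10.90 at day 2 in shKdm5ABC cells and at 10.32 and 10.65 and then 10.02 and 9.81 in shLuc cells. Both are named after their values were seen. E2f8 and Rrm1 fell in shKdm5ABC cells and rose in shLuc cells, and Igf2r rose in shKdm5ABC cells and fell in shLuc cells.

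KDM5A ChIP libraries of the series come from cells for which no transduction is stated, and they describe where the protein lay. A KDM5A peak within 1000 bp of the start was listed for 75.5% of the transcripts that rose, 78.0% of those that fell and 71.2% of those not called. Only the 2081, 2204 and 5658 transcripts of these groups with such a peak have a signal. Over them the mean of the 6 KDM5A libraries had a median of 209, 159 and 193 tags. The input had 13.5, 11.7 and 12.6 tags. List medians likewise cover only genes with a peak. They were 283 tags for replication genes (49 of 55) and 227 for mitosis genes (46 of 58). For oxidative phosphorylation the median was 349 (34 of 46) and for triglyceride genes 116 (15 of 19). Matrix glycoproteins were at 75.8 tags (29 of 41) and genes of fatty acid uptake and adipocyte secretion at 39.2 (12 of 21). SRF and contractile genes were at 186 (18 of 25) and interferon-stimulated genes at 90.0 (35 of 44). These values are a description, and the median RNA level, over all members with or without a peak, differed between the groups too. It was 6.62 for transcripts that rose, 7.44 for those that fell and 6.50 for those not called.

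H3K4me3 columns named for the same samples cannot be joined to the RNA by time. Promoter peaks of adipocyte genes were high in the columns named for 4 hours as well as in those named for day 2. The Cidec promoter had 350 and 389 tags in the shKdm5ABC columns named 4 hours and 451 and 258 in those named day 2, against 23.2 to 42.0 in the other 8 columns, the shLuc day 2 columns included. Cidec RNA in shKdm5ABC cells stood at 3.78 and 4.23 at 4 hours and at 10.59 and 11.81 at day 2. The Adipoq promoter had 174 and 161 tags, then 125 and 65.7, against 8.68 to 24.3 in the other columns. These columns go against their labels or against the RNA, so no direction is drawn from them. Taken by column name alone, 3173 of 10702 promoter peaks differed between them (29.6%), 3167 higher in the columns named day 2 (29.6%) and 6 lower (0.0561%).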

How the data were processed

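PolyA RNA of 12 libraries (6 groups of 2) was measured, and H3K4me3 and KDM5A ChIP of the same series were used as a description. Per the submitters' processing notes, the RNA tools were Bowtie2 (0.12.8), Subread and DESeq2 on mm9, and the ChIP tools STAR and HOMER on mm9, with no roles stated. The RNA values deposited by the authors are normalized tags per kb as log2, and neither the size factors nor any pseudocount or shrinkage is given in the sources used here. The ChIP values deposited by the authors are a signal, tags per merged peak scaled to a common library total. Counts were not used here, so depth is unknown and no count test was run.

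Transcripts with a log2 value of at least 1 in at least 2 libraries were fitted with limma 3.58.1 in R 4.3.3, with a mean-variance trend, over all 12 libraries. Contrasts were day 2 minus 4 hours in shKdm5ABC cells, the same in shLuc cells, and their difference. H3K4me3 peaks were fitted in the same way on log2(tags + 1). Adjusted p-values are Benjamini-Hochberg over all tested rows. Same-numbered replicates deviated together in RNA in all 15 pairs of groups (correlation of deviations 0.381 to 0.657, and 0.453 between the 2 groups compared). For named transcripts, values with the replicate number as a block are therefore given where they change a call between the times. Some lists and differences are given with the block as well. Alternatives were the block, other filters, a pseudocount, median centring, quantile normalization, no trend, only the compared groups, 1 transcript per gene and each library left out. Promoters came from RefSeq (GRCm38.p6), matched by symbol.

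The members and gene lists were chosen with earlier results of these data known. Genes named are Kdm5a, Kdm5b, Kdm5c, Pparg, Cebpa, Cebpb and Cebpd. Further genes named are, in each list, the 3 (or fewer) most significant members of the majority direction and 1 of the other (or the 2 at the highest level where none was called), the 10 highest and 10 lowest changes with a mean level of at least 3 and no overlap, and the 6 highest differences. Dnmt1, Fen1, Rrm1, Pcna, Myc, Fasn, E2f8, Igf2r, Ifi208 and the other transcripts named in full lists of 20 or fewer were named after their values were seen. A few transcripts that met the rule are not reported here.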

Additional observations from a re-analysis of the deposited data

Results flagged for a closer look

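The changes from 4 hours to day 2 differed between shKdm5ABC and shLuc cells for 20 transcripts by the limma test of the difference itself (Benjamini-Hochberg adjusted p under 0.05). The 6 with the highest differences at a mean level of at least 3 were these, each with 2 libraries per group. Mmp13 had a difference of 3.81 (SE 0.55), from a change of -0.35 in shKdm5ABC cells and -4.16 in shLuc cells. Adh7 had a difference of 2.49 (SE 0.32), from 1.88 and -0.61. For Vegfd the difference was 2.14 (SE 0.21), from 0.03 and -2.12. That of Lbh was 1.97 (SE 0.26), from 0.01 and -1.95. Clca3a1 followed with 1.97 (SE 0.24), from -2.40 and -4.36, and Olfml3 with 1.90 (SE 0.21), from -1.04 and -2.94. Each difference was positive in both same-numbered pairs of libraries. The 6 were chosen by these same libraries, so this is no separate support. Leaving out single libraries changed the count of 20, as given in the report.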

How the results depend on the processing

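The count of 5582 transcripts called in shKdm5ABC cells ranged from 4063 to 7756 over the alternatives, and that in shLuc cells from 4883 to 8212. The count of 20 transcripts called for the difference of the changes was 1177 with the replicate number as a block, 3 with no filter on low values, 10 with median centring, 4 without the mean-variance trend (3 higher and 1 lower) and 0 with only the compared groups. It ranged from 0 to 151 when a library of the 4 groups was left out, and was 0 without shKdm5ABC day 0 replicate 2, an alternative chosen after seeing the data. The H3K4me3 count of 3173 by column name was 5421 with the replicate block, 1974 with median centring and 1896 to 2647 with a library left out. In the median-centred H3K4me3 fit the higher share was 90.6% rather than nearly all. Of 149 named transcripts called in shKdm5ABC cells, 11 lost the call in at least 1 setting and none reversed: Pparg, Egr2, Mvk, Sncg, Max, Mnt, Rpl3, Rps6, Ash2l, Cd68 and Eng. Between 142 and 144 kept it when a library of the comparison was left out, where the lone library is assumed to vary like the others. The block changed no call of these 149 transcripts between the times. It added calls for Fasn, Has1, Ccnd1, Lpar1 and Nynrin, which were named after their values were seen. Between the times it changed no other call of a named transcript than those given beside the results. For the difference of the changes the block added calls not given there, among them Cebpa, Csf1, Ereg, Nfkbia, Hspe1, Gfpt2 and Fabp4. Of 37 list medians, 3 changed sign in some setting (MAP kinase feedback, cytosolic ribosomal proteins, and unfolded protein and integrated stress), and none of the 29 of at least 0.3 in size did. Causes of these shifts were not tested. Without counts, the depth behind low values cannot be judged.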

Other observations

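A group of genes outside the lists, chosen after their values were seen, makes the sugar precursors of hyaluronan, a glycan of the matrix. Ugdh, which makes UDP-glucuronate, stood at 14.48 and 14.67 at 4 hours and at 10.41 and 10.28 at day 2 in shKdm5ABC cells and fell by 4.23 (SE 0.14, adjusted p = 6.71e-08). Uap1, which makes UDP-N-acetylglucosamine, stood at 12.43 and 12.87 at 4 hours and at 8.99 and 9.03 at day 2 and fell by 3.64 (SE 0.16, adjusted p = 5.19e-07). Gfpt2, an entry enzyme of the hexosamine pathway, stood at 10.02 and 10.35 at 4 hours and at 6.95 and 7.36 at day 2 and fell by 3.03 (SE 0.18, adjusted p = 2.77e-06), and its paralog Gfpt1 stood at 10.24 and 10.65 at 4 hours and at 8.65 and 8.92 at day 2 and fell by 1.66 (SE 0.19, adjusted p = 8.21e-05). All 4 had day 2 libraries below both 4 hour libraries, which their choice by value favours. The libraries of both times did not overlap for 68.8% of all tested transcripts. The synthases did not follow as a group. Has2 stood at 7.49 and 6.53 at 4 hours and at 8.22 and 7.85 at day 2 and rose by 1.03 (SE 0.36, adjusted p = 0.0428). Has1 stood at 3.50 and 2.74 at 4 hours and at 2.71 and 1.21 at day 2, a log2 change of -1.16 (SE 0.65, adjusted p = 0.18), and Has3 stood at 3.69 and 3.08 at 4 hours and at 3.72 and 3.46 at day 2, a log2 change of 0.21 (SE 0.35, adjusted p = 0.674), and neither passed the test. With the block the adjusted p was 0.00137 for Has1 and 0.411 for Has3. In shLuc cells the changes were -4.63 for Ugdh, -3.95 for Uap1, -3.92 for Gfpt2 and 1.10 for Has2.

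Among transcripts that moved in opposite directions in both kinds of cell, Akr1c14, an aldo-keto reductase of a family of close copies, stood at 2.93 and 2.89 at 4 hours and at 5.01 and 4.27 at day 2 in shKdm5ABC cells and at 4.79 and 4.20 and then 3.94 and 2.61 in shLuc cells. Cdh2, which encodes N-cadherin, stood at 7.18 and 7.05 at 4 hours and at 7.78 and 7.55 at day 2 and, in shLuc cells, at 7.73 and 7.40 and then 7.16 and 6.97. Ogt, the enzyme that adds N-acetylglucosamine to proteins in the cell, stood at 8.63 and 8.60 at 4 hours and at 9.02 and 8.87 at day 2 and, in shLuc cells, at 8.90 and 9.06 and then 8.46 and 8.69. These were higher at day 2 in shKdm5ABC cells and lower in shLuc cells. Lgals3, which encodes galectin 3, went the other way round, at 9.89 and 9.80 at 4 hours and at 9.15 and 9.38 at day 2 in shKdm5ABC cells and at 9.13 and 9.23 and then 9.50 and 9.71 in shLuc cells.

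Further cell cycle genes, also chosen after their values were seen, are given as single cases and do not stand for a program. For comparison, the list medians were 1.84 for mitosis and 1.10 for replication genes. Mki67, the proliferation antigen, stood at 4.37 and 4.91 at 4 hours and at 7.24 and 7.59 at day 2 in shKdm5ABC cells and rose by 2.78 (SE 0.35, adjusted p = 0.000166). Ccnb1, the mitotic cyclin, stood at 4.05 and 4.88 at 4 hours and at 6.97 and 7.03 at day 2 and rose by 2.53 (SE 0.30, adjusted p = 0.000104). Ccne1, the cyclin of S phase entry, stood at 6.33 and 6.90 at 4 hours and at 7.69 and 7.96 at day 2, a log2 change of 1.21 (SE 0.21, adjusted p = 0.00131), and Ccnd1, the growth factor cyclin, stood at 9.86 and 11.19 at 4 hours and at 9.73 and 10.10 at day 2, a log2 change of -0.61 (SE 0.52, adjusted p = 0.379) that did not pass the test. With the block the adjusted p of Ccnd1 was 0.029.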
